A study of Mus musculus with 2 samples.

Results

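The respiratory chain genes were taken by symbol from the 31053 genes of the deposited feature lists. The rule took every symbol starting mt-Nd, mt-Co, mt-Cytb or mt-Atp, and every symbol starting Nduf, Uqcr, Cox4 to Cox8 or Atp5, with Sdha to Sdhd. Assembly factors named Ndufaf were left out, and Sdhaf1 to Sdhaf4 were left out with them as assembly factors. This gave 98 genes, of which 13 are encoded by mitochondrial DNA and 85 by the nuclear genome. By complex, the mitochondrial set holds 7 genes of complex I, 1 of complex III, 3 of complex IV and 2 of complex V, and the nuclear set holds 38, 4, 8, 18 and 17 genes of complexes I to V. The measurements are unique molecular identifiers (UMIs), counts of captured transcript ends, on a spatially barcoded array laid over frozen sections of the calvaria of mice, the flat bones that roof the skull. The Blank section came from a calvarial bone defect whose repair used no collagen/nHA materials. The Col_nHA section was cut from a defect repaired with them. Strain, age and sex were not given in the sources used here, and both sections were harvested after 7 days.

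The respiratory chain passes electrons from NADH and succinate to oxygen and pumps protons across the inner mitochondrial membrane, and ATP synthase, complex V, uses that gradient to make ATP. Complexes I, III, IV and V are built from subunits of both genomes, while complex II is wholly nuclear. The mitochondrial genes are read as long transcripts of a small circular genome and then cut apart, whereas each nuclear gene has its own promoter. Some nuclear subunits exist as isoforms for particular tissues, and striated muscle uses Cox6a2, Cox7a1 and Cox8b in place of the widely used Cox6a1, Cox7a2 and Cox8a.

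Each group held 1 section, so a ratio compares these 2 libraries without any replicate check, and no p-values were computed. Bracketed ranges are exact 95% limits (approximate ones for a difference of log2 ratios) and cover counting error only. Barcodes at or above a total UMI threshold set for each section were taken as spots. These were the 2249 deepest of 4992 barcodes in Blank, with 30705849 UMIs (median 9733), and the 2471 deepest in Col_nHA, with 40202268 UMIs (median 13815). Both files list the same 4992 barcodes, which are the positions of the array and not shared cells, and 265 Blank and 215 Col_nHA barcodes lay within 10% of the threshold. A spot can hold several cells, and fewer cells of a type cannot be told apart from less RNA per cell. The bone label was checked against 8 osteoblast markers, all of which had UMIs in both sections, at 3.25% of UMIs in Blank and 2.17% in Col_nHA. Their sum, which includes Col1a1, passed 2% of UMIs in 82.7% of Blank spots and 52.8% of Col_nHA spots. Presence of these markers was therefore a weak check. The sections also differed in tissues other than bone. The 12 skeletal muscle markers, all detected in both, made up 0.618% of UMIs in Blank and 1.48% in Col_nHA, and 9 choroid plexus markers made up 1.20% and 0.00222%. Spots with over 2% of their UMIs in the muscle markers are called muscle spots below, and there were 170 of them in Blank and 279 in Col_nHA.

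Transcripts of both sets were more abundant in the Col_nHA section over all spots, and the mitochondrial set was less abundant there once muscle spots were left out. The mitochondrial set made up 3.67% of UMIs in Blank and 4.60% in Col_nHA, a ratio of 1.254 (1.251 to 1.257). The nuclear set made up 2.17% and 2.54%, a ratio of 1.17 (1.17 to 1.17). On the log2 scale the mitochondrial ratio exceeded the nuclear ratio by 0.10 (0.09 to 0.11). Without the muscle spots the mitochondrial set was lower in Col_nHA, at 2.60% against 3.44% in Blank, a ratio of 0.755 (0.752 to 0.757), while the nuclear set stood at 2.1% against 2.05%, a ratio of 1.03 (1.02 to 1.03). The difference between the log2 ratios then turned to -0.44 (-0.45 to -0.44). Expressed within each section, 1.69 mitochondrial UMIs were counted per nuclear UMI in Blank and 1.81 in Col_nHA over all spots, and 1.68 and 1.24 without muscle spots. Leaving out instead the spots with over 2% of UMIs in the muscle, choroid plexus, brain, adipose and skin markers summed left 1615 Blank and 2121 Col_nHA spots. The mitochondrial log2 ratio in them was -0.31 and the nuclear one 0.10.

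The muscle spots themselves differed between the sections. In them the mitochondrial set made up 6.42% of UMIs in Blank and 23.5% in Col_nHA, a ratio of 3.66 (3.64 to 3.68), and the nuclear set 3.68% and 6.69%, a ratio of 1.82 (1.80 to 1.83). Muscle spots held 7.6% of the UMIs of Blank spots and 9.57% of those of Col_nHA, but 13.3% and 48.9% of the mitochondrial UMIs and 12.9% and 25.2% of the nuclear ones. Over single spots, the mitochondrial share ranged from 0.354% through a median of 4.12% to 20.3% in Blank, and from 0.217% through 3.32% to 43.2% in Col_nHA. The median spot was therefore lower in Col_nHA although the section total was higher. More than 10% of UMIs were mitochondrial in 42 Blank spots, 26 of them muscle spots, and in 259 Col_nHA spots, 258 of them muscle spots. The nuclear share was narrower, with medians of 1.98% and 2.05% and highest spots at 6.59% and 10.0%.

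**Figure D1:**
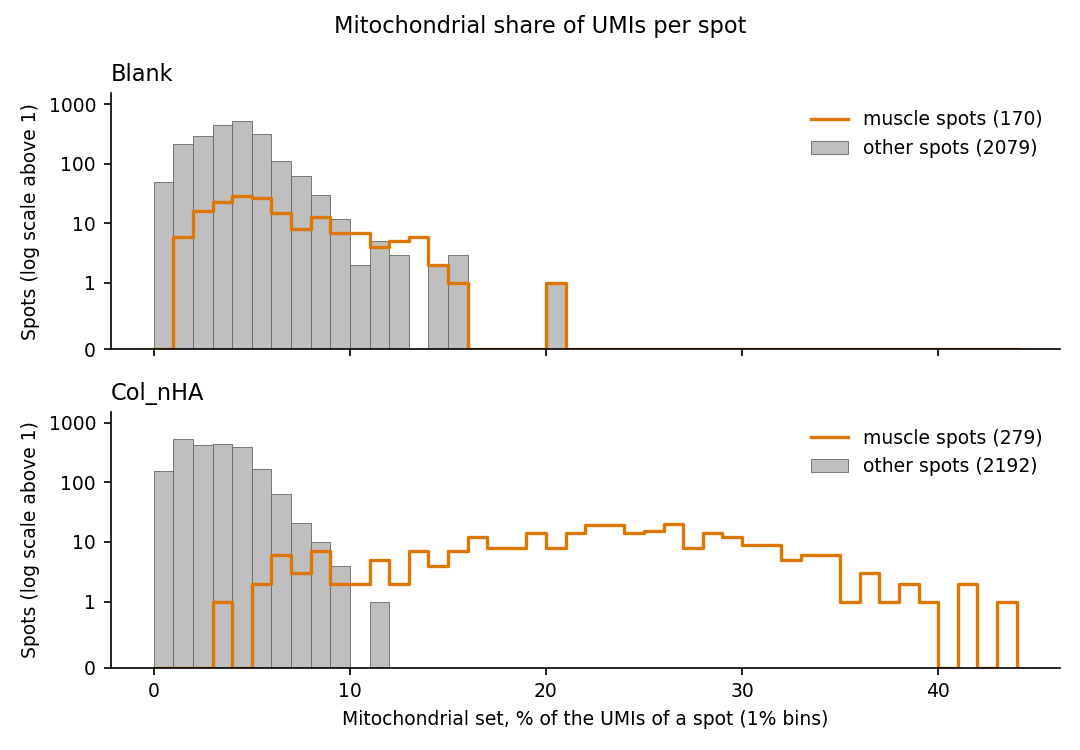
Number of spots (log scale above 1) by the percentage of a spot's UMIs in the mitochondrial set, in 1% bins, for Blank above and Col_nHA below. Grey bars are the spots with at most 2% of UMIs in the muscle markers (2079 and 2192) and the orange line the muscle spots (170 and 279); the Col_nHA muscle spots form a broad group around their median of 23.3%, while the Blank muscle spots have a median of 5.25%.

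The kind of muscle RNA in those spots also differed. Myh4, the myosin heavy chain of the fastest fibres, gave 1.53% of the muscle marker UMIs in Blank muscle spots and 8.15% in Col_nHA. Myh2, the myosin of fast oxidative fibres, gave 2.98% and 0.487%. Myh1, the other myosin heavy chain of the list, gave 13.7% and 6.79%. The muscle marker load differed too: 160 of the 170 Blank muscle spots had 2 to 10% of UMIs in the markers and 10 had more, against 45 and 234 in Col_nHA. Within the same range of load the sections also differed in the mitochondrial set, though load inside a range was not matched. In spots with 2 to 10% muscle marker UMIs it made up 6.14% in Blank and 13.9% in Col_nHA, and with over 10% it made up 8.58% and 24.8%, the former from 10 spots. The nuclear set in the same bins was 3.48% against 4.0%, and 5.21% against 7.05%. With 0.5 to 2% of UMIs in the markers the mitochondrial set was again higher in the 52 Col_nHA spots, at 5.50%, than in the 479 Blank spots, at 3.49%. Only in the spots with under 0.5%, 1600 in Blank and 2140 in Col_nHA, was the mitochondrial set lower in Col_nHA, at 2.56% against 3.43%. The nuclear set in those spots was 2.04% in Blank and 2.1% in Col_nHA. The part of fibre type and of muscle load in these differences was not tested.

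**Figure D2:**
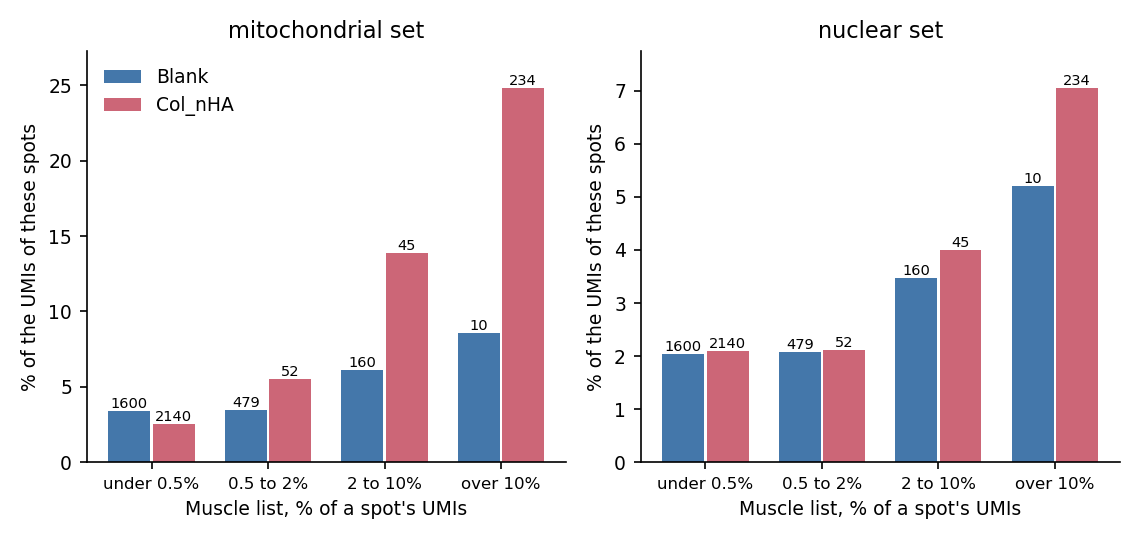
Mitochondrial set (left) and nuclear set (right) as a percentage of the UMIs of spots grouped by their muscle marker share, with Blank in blue, Col_nHA in red and the number of spots above each bar. Mitochondrial bars are higher in Col_nHA in the 3 groups from 0.5% upwards and lower under 0.5%, while the nuclear bars differ most over 10%.

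Among the mitochondrial genes, 12 of 13 reached 10 UMIs per 1000000 UMIs of the section (CPM) in either section, the minimum set for counting a gene. The other, mt-Nd6, is encoded on the opposite strand from the rest and had 2.96 CPM in Blank and 2.36 CPM in Col_nHA. Over all spots, 11 of the 12 had a ratio above 1, as had 52.1% of the 9855 genes counted, and none differed 1.5-fold, where 5.13% of all genes were that much higher and 7.07% lower. Without muscle spots all 12 were below 1, where 59.2% of 9850 genes were above 1, and 5 of the 12 (mt-Nd2, mt-Nd4, mt-Nd4l, mt-Nd5 and mt-Atp8) were at least 1.5-fold lower against 7.21% of all genes. All 12 were also below 1 with each of the 3 other scalings tried in those spots. The median log2 ratio of the 12 genes was 0.27 over all spots and -0.56 without muscle spots, beside 0.02 and 0.07 for all genes.

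Complex I genes, which encode subunits of its membrane arm, were higher in Col_nHA over all spots and lower without muscle spots. mt-Nd2 had 1712 CPM in Blank and 2360.4 CPM in Col_nHA over all spots, and 1604 CPM and 845 CPM without muscle spots, which is a log2 ratio of 0.46 against -0.93. mt-Nd4 had 2552 CPM and 3082 CPM over all spots, and 2379 CPM and 1398 CPM without muscle spots, a log2 ratio of -0.77. mt-Nd5 had 208 CPM and 215 CPM over all spots, and 205 CPM and 99.9 CPM without muscle spots, a log2 ratio of -1.03. The complex I genes as a sum had a ratio of 1.28 over all spots and 0.617 (0.613 to 0.621) without muscle spots. mt-Nd1 and mt-Nd3 had log2 ratios of -0.49 and -0.57 without muscle spots. mt-Nd4l was lower by more, with 45.6 CPM in Blank against 19.1 CPM in Col_nHA without muscle spots, a log2 ratio of -1.25. It lies at MT:9877-10173 on the mouse mitochondrial genome and overlaps mt-Nd4 (MT:10167-11544), so its UMIs and those of its neighbour may not be fully separable.

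The genes of complexes III, IV and V were also lower in Col_nHA without muscle spots. mt-Cytb, the only mitochondrial subunit of complex III, had 3832 CPM in Blank and 4395 CPM in Col_nHA over all spots, and 3567 CPM and 2425 CPM without muscle spots, a log2 ratio of -0.56. mt-Co1, which holds the oxygen-reducing centre of complex IV, had 6145 CPM and 8503 CPM over all spots, and 5669.7 CPM and 4768 CPM without muscle spots, a log2 ratio of -0.25. mt-Co2 and mt-Co3, the other core subunits of that complex, stood at -0.46 and -0.26 without muscle spots. mt-Atp6, part of the proton channel of complex V, had 6013 CPM and 4895 CPM without muscle spots, a log2 ratio of -0.30. As sums of UMIs, complexes IV and V stood at ratios of 0.809 and 0.810, nearer to 1 than complex III at 0.680 and complex I at 0.617. Abundant genes carry these sums, and complex III is 1 gene. Without muscle spots mt-Atp6 gave 177971 of the 178850 complex V UMIs in Col_nHA. mt-Atp8 was the only counted mitochondrial gene below 1 over all spots, with 57.1 CPM in Blank against 44.3 CPM in Col_nHA, and had 59.3 CPM and 24.2 CPM without muscle spots, where its log2 ratio of -1.29 was the lowest of the 12. It lies at MT:7766-7969 and overlaps mt-Atp6 (MT:7927-8607), with which it shares a transcript.

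**Figure D3:**
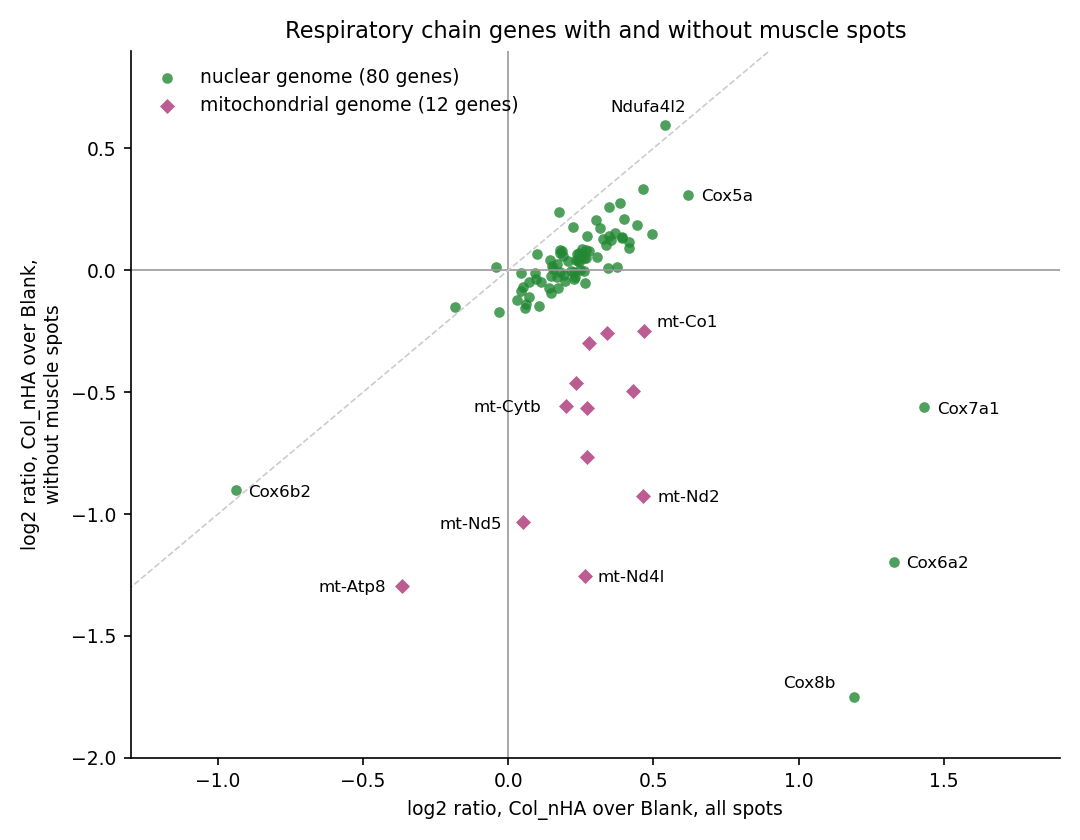
Log2 ratio of Col_nHA over Blank for each respiratory chain gene with at least 10 CPM in either section, over all spots (x) and without muscle spots (y), with 12 mitochondrial genes as diamonds and 80 nuclear genes as circles; the dashed line marks equal values. All mitochondrial diamonds lie below 0 on the y axis, most nuclear circles lie near 0 on it, and Cox6a2, Cox7a1 and Cox8b cross from well above 0 to below 0.

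Of the 85 nuclear genes, 80 reached 10 CPM in either section. Cox4i2, Atp5s, Cox7b2 (2 UMIs in Blank and 0 in Col_nHA), Cox8c (0 in both) and a second gene ID carrying the symbol Atp5o (0 in both) did not. Over all spots 76 of the 80 had a ratio above 1 against 52.1% of all genes, 4 were at least 1.5-fold higher against 5.13% of all genes, and 1 was at least 1.5-fold lower against 7.07%. Without muscle spots 48 were above 1 and 32 below, close to the 59.2% of all genes above 1. There 1 was at least 1.5-fold higher against 6.2% of all genes, and 3 were at least 1.5-fold lower against 7.21%. The median log2 ratio of the 80 was 0.23 over all spots and 0.04 without muscle spots, the latter under the 0.07 of all genes. The direction of the nuclear sum did not turn with the scaling in those spots, where its log2 ratio ran from 0.02 to 0.04.

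In complex I, 37 of 38 nuclear genes had a ratio above 1 over all spots, against 52.1% of all genes. Without muscle spots 20 of 38 had, against 59.2%. Ndufa4, which is named for complex I although its protein belongs to complex IV, had 502 CPM in Blank against 601 CPM in Col_nHA, and 471 CPM and 470 CPM without muscle spots. Ndufa2, an accessory subunit, had 394 CPM and 460.1 CPM over all spots and kept a log2 ratio of 0.18 without muscle spots. Ndufa8, another accessory subunit, had 114 CPM and 157 CPM, a log2 ratio of 0.46, and 0.33 without muscle spots. Ndufa4l2, a relative of Ndufa4 whose gene is induced by low oxygen, had 55.0 CPM in Blank against 79.9 CPM in Col_nHA, and 56.0 CPM and 84.7 CPM without muscle spots. Its log2 ratio of 0.60 there made it the only nuclear gene 1.5-fold higher in those spots, and it was less than 1.5-fold higher once spots of the other non-bone tissues were left out too. In muscle spots it was lower in Col_nHA, at 33.8 CPM against 42.0 CPM. Ndufa3 was the complex I gene below 1 over all spots, at 378 CPM and 370 CPM.

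In complex II all 4 subunits had a ratio above 1, both over all spots and without muscle spots, against 52.1% and 59.2% of all genes. Sdha, the flavoprotein that oxidises succinate, had 141 CPM in Blank against 171 CPM in Col_nHA, and Sdhb, the iron-sulphur subunit, had 120.1 CPM and 155 CPM. Without muscle spots their log2 ratios were 0.08 and 0.15. Sdhd, a membrane anchor, had 77.3 CPM and 98.3 CPM, a log2 ratio of 0.35, and 0.26 without muscle spots. In complex III all 8 genes were above 1 over all spots and 7 without muscle spots, against the same shares of all genes. Uqcrfs1, the Rieske iron-sulphur protein, had 104 CPM and 147 CPM, a log2 ratio of 0.50 that was 0.15 without muscle spots. Uqcrq, a small subunit, had 442 CPM and 583 CPM, and a log2 ratio of 0.40 and 0.21. Complexes II and III as sums had ratios of 1.08 and 1.09 without muscle spots, beside 1.01, 1.03 and 1.01 for the nuclear genes of complexes I, IV and V.

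In complex V all 15 counted genes were above 1 over all spots and 8 without muscle spots, against 52.1% and 59.2% of all genes. Atp5b, the catalytic beta subunit, had 745 CPM in Blank and 929 CPM in Col_nHA, a log2 ratio of 0.32 that was 0.17 without muscle spots. Atp5e, a stalk subunit, had 1109 CPM and 1166 CPM over all spots and 1061 CPM and 984 CPM without muscle spots. Atp5g1, Atp5g2 and Atp5g3 encode the same ring subunit with different import signals, and their log2 ratios were 0.42, 0.10 and 0.18 over all spots. In muscle spots they parted, with Atp5g1 at 466 CPM and 1262 CPM, a log2 ratio of 1.44, Atp5g3 at 0.71 and Atp5g2 at 0.30. Several genes of this complex, among them Atp5c1, Atp5f1, Atp5k, Atp5l and Atp5o, have pseudogenes or a repeated symbol, and how reads on near-identical copies were assigned was not given in the sources used here.

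Complex IV held 4 of the 4 nuclear genes that were 1.5-fold higher and the single one that was lower over all spots. Cox5a, a matrix-side subunit, had 213 CPM in Blank and 328 CPM in Col_nHA, a ratio of 1.54 (1.49 to 1.58), and a log2 ratio of 0.31 without muscle spots. Cox4i1 and Cox6c, subunits made in most tissues, had ratios of 1.11 and 1.18 and log2 ratios of 0.00 and 0.04 without muscle spots. Cox6b2, best known from testis, had 16.2 CPM in Blank and 8.43 CPM in Col_nHA, a ratio of 0.522 (0.453 to 0.601), and 17.0 CPM and 9.10 CPM without muscle spots. Its level was highest in the spot region led by Ttr, the choroid plexus transthyretin gene, with 57.2 CPM, and that region held no Col_nHA spot. Cox6b2 was still lower in Col_nHA, at a log2 ratio of -0.61, with choroid plexus and the other non-bone tissue spots left out. The part of that region in the difference was not tested. Cox7a2l, which joins complexes III and IV into supercomplexes, had 209 CPM and 184 CPM, a log2 ratio of -0.19, and -0.15 without muscle spots.

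The 3 muscle isoforms had the widest ratios of the 80 counted nuclear genes over all spots. Cox6a2 (chr7:128205435-128206366) had 95.1 CPM in Blank and 239 CPM in Col_nHA, a ratio of 2.51 (2.41 to 2.62). Cox7a1 (chr7:30184171-30186030) had 49.4 CPM and 133 CPM, a ratio of 2.70 (2.55 to 2.86). Cox8b (chr7:140898942-140900446) had 66.8 CPM and 153 CPM, a ratio of 2.28 (2.17 to 2.40). Positions are those of RefSeq on GRCm38.p6. All of them were higher in Col_nHA over all spots and lower without muscle spots, where Cox6a2 had 30.6 CPM and 13.4 CPM, Cox7a1 20.7 CPM and 14.0 CPM, and Cox8b 18.9 CPM and 5.61 CPM. Their sum had a ratio of 2.48 over all spots and 0.470 (0.437 to 0.505) without muscle spots. The spots left after that cut still held more muscle marker UMIs in Blank, at 0.203% against 0.0695% in Col_nHA. The lower isoform values there cannot be told apart from this remaining muscle RNA. In spots with under 0.5% muscle markers, the ratio of the sum was 0.841. Muscle spots held 69.3% of the muscle isoform UMIs in Blank and 94.3% in Col_nHA, against 6.06% and 7.03% of the UMIs of Cox6a1, Cox7a2 and Cox8a. The widely used isoforms had a summed ratio of 1.08 over all spots and 1.09 without muscle spots.

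Within muscle spots the balance of each pair lay further towards the muscle isoform in Col_nHA. Cox6a2 gave 76.1% (74.4 to 77.7) of the UMIs of the Cox6a pair in Blank and 94.3% (93.9 to 94.8) in Col_nHA. Cox8b gave 63.3% (61.3 to 65.2) of its pair with Cox8a and 88.5% (87.7 to 89.3). Cox7a1 gave 48.7% (46.4 to 51.0) of its pair with Cox7a2 and 63.4% (62.3 to 64.5). Shares of a pair are between genes and not corrected for transcript length, so only the sections are compared. These shares pool spots of unlike muscle marker load. In spots with 2 to 10% muscle markers the muscle isoforms summed to 0.170% of UMIs in Blank and 0.235% in Col_nHA. The widely used isoforms there summed to 0.108% and 0.110%. With over 10% the sums were 0.369% and 0.555%, and 0.102% and 0.106%. The part of load in the pair shares was not tested. Outside muscle spots the order turned, with Cox6a2 at 6.76% of its pair in Blank and 2.61% in Col_nHA, and Cox8b at 2.90% and 0.874%. More muscle marker UMIs remained in the Blank spots there, as given above. Cox6a1 and Cox8a were lower in Col_nHA than in Blank within muscle spots, at 142 CPM against 276 CPM and at 199.6 CPM against 377 CPM. Cox7a2 differed from them, with 726 CPM against 419 CPM.

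**Figure D4:**
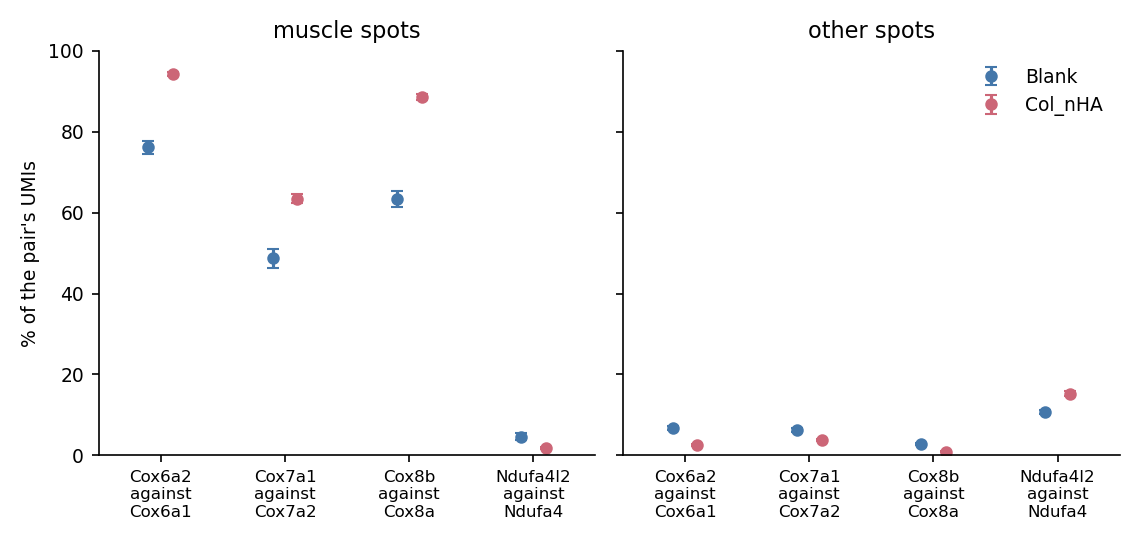
Percentage of a pair's UMIs that came from the first-named isoform in muscle spots (left) and the other spots (right), with Blank in blue and Col_nHA in red; bars are exact 95% binomial intervals. The 3 muscle isoforms take a larger share in Col_nHA than in Blank in muscle spots and a smaller one elsewhere, and Ndufa4l2 does the reverse. The sections were not matched for muscle marker load in either panel.

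The promoters of Cox8b and Cox8a are shown because these genes are the pair whose muscle isoform stood furthest apart between muscle and other spots. Each window runs from 250 bases before to 50 after the RefSeq start, from RefSeq on GRCm38.p6, printed 5′ to 3′ on the gene's strand. Both genes lie on the minus strand, Cox8b at chr7:140900397-140900696 and Cox8a at chr19:7217567-7217866. Capitals mark the searched letters: NRF1 TGCGCA, GABP and other ETS factors CCGGAAG, YY1 AAGATGG, ERR TCAAGGTCA, the E-box CAGCTG read by muscle factors and the TATA box TATAAA, each on either strand. The last 2 were added after the values were seen.
Cox8b promoter: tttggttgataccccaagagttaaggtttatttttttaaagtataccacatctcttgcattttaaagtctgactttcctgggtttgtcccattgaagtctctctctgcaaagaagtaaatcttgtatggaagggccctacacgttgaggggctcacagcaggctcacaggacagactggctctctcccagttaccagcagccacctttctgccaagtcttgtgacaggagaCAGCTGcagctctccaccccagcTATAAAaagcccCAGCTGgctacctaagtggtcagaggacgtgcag
Cox8a promoter: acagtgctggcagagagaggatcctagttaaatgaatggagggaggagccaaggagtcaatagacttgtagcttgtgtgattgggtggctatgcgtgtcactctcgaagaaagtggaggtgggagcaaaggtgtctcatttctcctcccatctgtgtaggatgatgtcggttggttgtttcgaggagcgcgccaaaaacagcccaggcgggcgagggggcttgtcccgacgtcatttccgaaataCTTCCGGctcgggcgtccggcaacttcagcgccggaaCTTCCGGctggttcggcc
The Cox8b window holds CAGCTG 2 times and TATAAA 1 time, and the Cox8a window holds CCGGAAG 2 times, read here from the other strand as CTTCCGG. Neither window holds the remaining letters. The windows of the other pair searched, Cox7a1 and Cox7a2, hold none of the letters, so the contrast of the Cox8 pair was not seen there. Cox6a2 had no window. Of 84 nuclear member symbols, 69 had windows in the table, 74 windows in all. NRF1 letters stood in 25.7% of these windows and in 7.76% of all 32851 windows, ETS letters in 21.6% and 8.86%, YY1 letters in 14.9% and 6.34%, and ERR letters in 2.70% and 0.423%. CAGCTG stood in 8.11% of member windows and 16.3% of all, and TATAAA in 10.8% and 13.6%. The member windows were also richer in G and C, with a median of 57.5% against 52.7%. A match of letters is a description and not a binding site.

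Muscle spots and the other spots of the same section were set side by side for every gene, which avoids a comparison between libraries. In Blank, the mitochondrial set was 1.87 times and the nuclear set 1.80 times as high in muscle spots as in the other spots. In Col_nHA these were 9.06 and 3.18 times. Of the 12 counted mitochondrial genes, 9 were at least 1.5-fold higher and 1, mt-Atp8, lower in Blank muscle spots, where 15.9% of all genes were higher and 14.3% lower. All 12 were higher in Col_nHA, where 12.5% of all genes were higher and 68.7% lower, with a median log2 ratio over all genes of -1.11. Of the nuclear genes, 63 of 81 were at least 1.5-fold higher in Blank muscle spots and 75 of 80 in Col_nHA, and 3 were lower in each. In Col_nHA the lower ones were Cox6a1, Cox8a and Ndufa4l2, at log2 ratios of -1.81, -1.67 and -1.33. The widest on the other side was Cox8b, at 5.61 CPM in other spots and 1541 CPM in muscle spots. Among mitochondrial genes mt-Nd2 went from 845 CPM to 16683 CPM in Col_nHA, and mt-Atp6 from 4895 CPM to 33946 CPM, log2 ratios of 4.30 and 2.79. In Blank the same genes stood at 0.91 and 0.75.

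The spots were also grouped into 14 regions by their expression profile with the 98 genes left out, so a region was not defined by them. The mitochondrial set took 24.3% of UMIs in the region led by Myh4, Pvalb and Mybpc2 (6 Blank and 256 Col_nHA spots), where the nuclear set took 6.83%. It took 6.16% in the region led by Ttr, Enpp2 and Kl, with 175 spots from Blank alone, 4.33% in the one led by Cfd and the muscle genes Myl4 and Mybph (415 and 27 spots), and 4.11% in the one led by the bone matrix genes Bglap, Bglap2 and Ibsp (82 and 62 spots). Myh3, Myh8, Csrp3, Myog and Tnni1 were also among the leading genes of the Cfd region. The other 10 regions lay between 2.26% and 3.31%, and the nuclear set in all regions but the one led by Myh4 between 1.69% and 2.94%. With the sections pooled, 2 regions had the fewest mitochondrial UMIs per nuclear UMI. These were led by Acp5 and Mmp9, the osteoclast enzymes, at 1.03 (22 and 318 spots), and by Npy, Spp1 and Gpnmb at 1.09 (9 and 295 spots). In the Acp5 region the low value was that of the Col_nHA spots, with 2.27% mitochondrial and 2.37% nuclear UMIs. Its 22 Blank spots had 4.68% and 2.44%. Its median depth of 22766.5 UMIs was the highest of the 14 regions, and the part of depth was not tested. The bone matrix region had 2.22 mitochondrial UMIs per nuclear UMI, with a nuclear share of 1.85%. Ndufa4l2 was at 283 CPM in the region led by Saa3 and Dlk1 and at 175 CPM in that led by Krt6b, 9 and 0 of whose spots were from Blank, and between 32.3 and 84.9 CPM in the other 12.

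**Figure D5:**
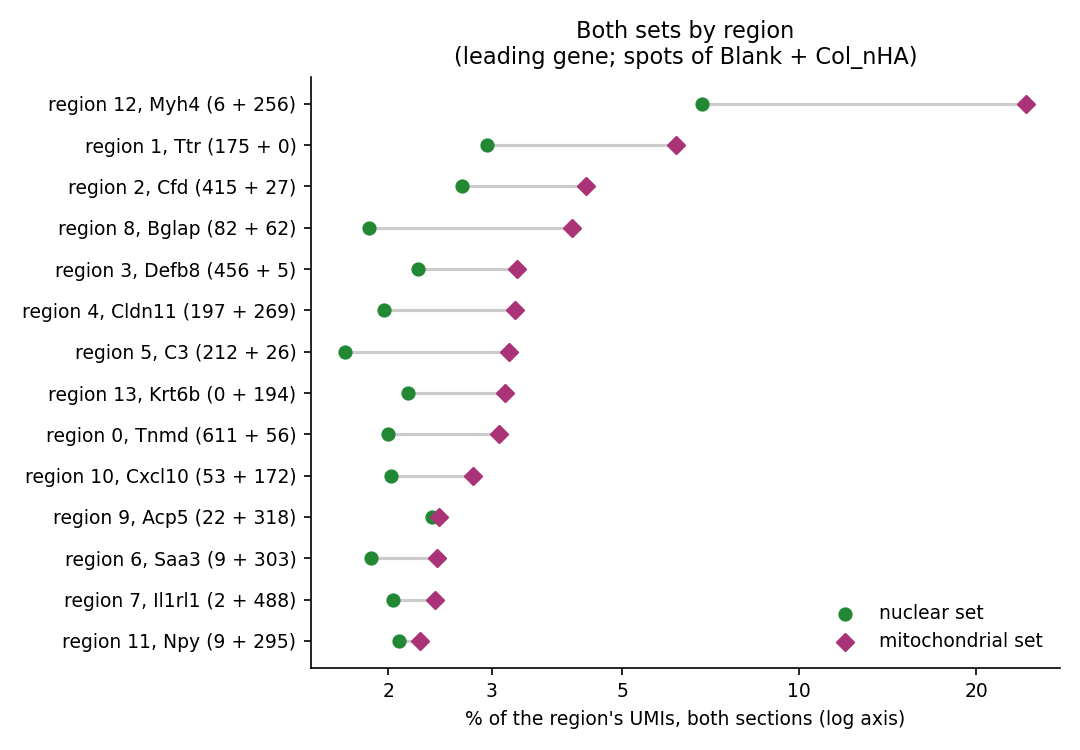
Percentage of UMIs in the nuclear set (circles) and the mitochondrial set (diamonds) for each of the 14 regions on a log axis, sections pooled, with the leading gene and the number of Blank and Col_nHA spots. The region led by Myh4 lies apart at 24.3% and 6.83%, and both marks nearly meet in the region led by Acp5.

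Regions were mostly filled by 1 section, and 4 had at least 50 spots of each. Within them the difference between the sections did not have 1 direction. The mitochondrial ratio was 0.983 in the region led by Tnmd, a tendon gene, 0.849 in that led by Cldn11, and 0.862 in the bone matrix region, where the set made up 4.42% in Blank and 3.81% in Col_nHA. It was 1.33 in the region led by Cxcl10 and Ly6c2, at 2.24% and 2.97%, from 53 Blank spots. The nuclear ratio in the same regions was 1.01, 1.13, 1.26 and 0.943. In the first 3 of these the mitochondrial ratio was below the nuclear one, and in the Cxcl10 region above it.

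The mitochondrial share moved with the depth of a spot. Across spots, Spearman's rho of the mitochondrial share with total UMIs was -0.47 over the 2249 spots of Blank and -0.51 over the 2471 of Col_nHA, while for the nuclear share it was 0.13 and 0.27. Spots of a section share a library, and a share is formed with the total as its denominator. Outside muscle spots the mitochondrial set made up 4.85% in Blank and 4.45% in Col_nHA in spots under 8000 UMIs, 3.90% and 3.25% from 8000 to 16000 UMIs, and 2.83% and 2.14% over 16000 UMIs. The section ratio was below 1 in each depth group, at 0.919, 0.832 and 0.755, with nuclear ratios of 1.004, 0.967 and 1.04. Barcodes under the spot threshold, with a median of 1248 UMIs in Blank and 1760 UMIs in Col_nHA, had the mitochondrial set at 6.0% and 7.32% and the nuclear set at 1.74% and 2.24%. The part of depth in the section difference was not tested beyond these groups. The 2 sets hardly moved together: rho between their shares was 0.10 in Blank and 0.23 in Col_nHA, and 0.01 and -0.10 without muscle spots. The mitochondrial share went with the muscle markers at rho 0.11 in Blank and 0.64 in Col_nHA, and with 5 erythroid markers at 0.34 and 0.29. Those erythroid markers made up 0.482% of UMIs in Blank and 0.197% in Col_nHA. In Blank the mitochondrial share also went with the choroid plexus markers, at 0.38.

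Other genes of mitochondria and energy supply were described from lists. Of 77 counted genes of the mitochondrial ribosome, 74 had a ratio above 1 over all spots, against 52.1% of all genes, and 73 of 76 without muscle spots, against 59.2%, with median log2 ratios of 0.19 and 0.18. Mrpl52 of its large subunit had 281 CPM in Blank against 328 CPM in Col_nHA, and 287 CPM and 346 CPM without muscle spots. The cytosolic ribosome had medians of -0.01 and 0.04. Genes for the copying and reading of mitochondrial DNA had medians of 0.02 and 0.04, with Polg, its polymerase, at 34.2 CPM and 36.5 CPM, and Ssbp1, its single-strand binding protein, at 42.7 CPM in both sections. Genes for mitochondrial RNA processing had medians of 0.15 and 0.16. The 13 citrate cycle genes had a median of 0.31 over all spots and 0.03 without muscle spots. Idh3a, a subunit of isocitrate dehydrogenase, stood at 0.50 and -0.02, while Mdh2, the most abundant of them, stood at 0.52 and 0.33. The 6 genes of ADP and phosphate exchange had medians of 0.39 and 0.27. Among them Slc25a4, the ADP/ATP carrier of muscle and heart, stood at 0.50 and -0.13. It was the only gene of that list below 1 without muscle spots. Cycs, cytochrome c, was 1.5-fold higher over all spots, at 122 CPM and 221 CPM, and 108 CPM and 150.1 CPM without muscle spots. Of 15 glycolysis genes, 11 were 1.5-fold higher over all spots, against 5.13% of all genes. Without muscle spots 8 were higher, against 6.2%, and 1 was lower, against 7.21%, with medians of 0.77 over all spots and 0.65 without muscle spots. Slc2a1, a glucose transporter, had 22.9 CPM in Blank against 53.8 CPM in Col_nHA, and 23.9 CPM and 58.9 CPM without muscle spots. Assembly factors of complex I and of the other complexes had medians of 0.09 and 0.17 over all spots.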

How the data were processed

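Each section was 1 library. Per the labels, the authors processed frozen sections for spatial transcriptomics; the extraction text describes a droplet single-cell kit instead. Per the submitters' processing notes the tool was Space Ranger and the build mm10, and its version was not given in the sources used here. Deposited matrices hold whole-number UMI counts per gene and barcode, not normalized by the authors. Counts were summed over spots (31053 genes) and scaled to CPM by the section total of 30705849 UMIs in Blank and 40202268 UMIs in Col_nHA. Genes with at least 10 CPM in either section were counted at 1.5-fold. A gene with 0 UMIs in a single section stood at 3 counts. Ratio intervals were exact conditional binomial, and the interval of the difference of log2 ratios used the normal approximation for large counts. Regions came from Leiden clustering at a resolution of 0.6 (2000 variable genes without members, 30 components, 15 neighbours; scanpy 1.11.5). TMM factors came from edgeR 4.0.16. Positions and promoters were matched by symbol or synonym to RefSeq GRCm38.p6. Positions were found for 96 of 98 members, and promoter windows for 69 of 84 nuclear symbols. The calculations were tested on simulated data. Members, lists, spot thresholds and tests were chosen with earlier results of these data known. Genes named are all mitochondrial members, the 2 most abundant and the 2 with the widest difference per complex and per list, and the isoform pairs; mt-gene overlaps, Ndufa3 and region leaders were named after their values were seen. No p-value was computed, since each group has 1 section.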

Additional observations from a re-analysis of the deposited data

How the results depend on the processing

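Leaving out spots by muscle or tissue markers turned results; no other alternative turned the direction of these set values. The mitochondrial log2 ratio of 0.33 was -0.41 without spots over 2% muscle markers, -0.42 at 0.5% and -0.41 at 5%, the latter limits being chosen after seeing the data, and -0.31 without muscle, choroid plexus, brain, adipose and skin spots. The nuclear ratio of 0.23 was 0.038, 0.042, 0.015 and 0.097 in that order, the difference of 0.10 was -0.44, -0.46, -0.42 and -0.40, and the muscle isoform ratio of 1.31 was -1.09, -0.25, -1.51 and -0.62. Nuclear genes 1.5-fold higher, 4 over all spots, were 1, 1, 1 and 0, and those 1.5-fold lower, 1 over all spots, were 3, 1, 4 and 3. Mitochondrial genes above 1 went from 11 to 0 in all these settings, and nuclear genes above 1 from 76 to 48, 51, 42 and 62. Of all genes, 59.2% were above 1 in the first of these settings. In the last, 5834 of 9676 genes were above 1, 528 were 1.5-fold higher and 522 were 1.5-fold lower. These shares were not computed at the limits of 0.5% and 5%. With every barcode the mitochondrial, nuclear, difference and muscle isoform values were 0.31, 0.24, 0.069 and 1.39. With at least 8000 UMIs in both sections they were 0.39, 0.22, 0.17 and 1.31. As means of per-spot CPM they were 0.34, 0.26, 0.072 and 1.45. Scaling moves every ratio alike: the mitochondrial, nuclear and muscle isoform values were 0.34, 0.24 and 1.32 with mitochondrial, ribosomal protein and haemoglobin UMIs left out of the total, 0.37, 0.27 and 1.36 with TMM, and 0.37, 0.27 and 1.36 with median-of-ratios factors. At the lower of the other 2 fold limits 22 nuclear genes were higher, and at 2-fold or with at least 50 CPM 0 were lower. Shares of all genes were not computed at these limits, so the 22 cannot be set against all genes. Adding Sdhaf1 to Sdhaf4, or leaving out 12 members with pseudogenes or copies, moved a value by less than its counting interval. At resolutions of 0.3 and 1.0, 3 of 4 and 2 of 3 regions with 50 spots of each section had a mitochondrial ratio below 1, against 3 of 4. With 1 section per group, no replicate could be left out. No paired analysis was possible because each group has 1 section and no result comes from a test.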
